A study of Mus musculus with 6 samples.

Results

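The nuclear-encoded subunits of oxidative phosphorylation were examined in CX3CR1-EGFP+ osteoclast precursors, and their expression was compared between JAK inhibitor-treated and vehicle-treated mice, complex by complex. Members were chosen by gene symbol: the Ndufa, Ndufb, Ndufc, Ndufs and Ndufv genes of complex I, Sdha to Sdhd of complex II, the Uqcr genes and Cyc1 of complex III, the Cox4i, Cox5, Cox6, Cox7 and Cox8 genes of complex IV, and the Atp5 genes of complex V. Of the 24346 gene symbols in the tables, 86 matched, and 82 of these reached an FPKM (fragments per kilobase of transcript, scaled to the mapped fragments of the library) of 1 in at least 1 mouse. They comprised 37 members in complex I, 4 in complex II, 9 in complex III, 15 in complex IV and 17 in complex V, among 11301 genes that passed the same limit. The symbols left out (Ndufa4l2, Cox7b2, Cox8b and Cox8c) were listed at 0 in all 6 mice, and the member just inside the limit was Cox4i2, whose highest value was 1.13 FPKM. Symbol and protein did not always match: Ndufa4, grouped here with complex I, encodes a protein now assigned to complex IV, and Atp5s and Atp5sl, grouped with complex V, encode proteins that are not subunits of ATP synthase.

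The mice were CX3CR1-EGFP knock-in animals, in which the endogenous Cx3cr1 promoter drives the fluorescent reporter, so that the sorted population holds every calvarial cell with an active promoter and not osteoclast precursors alone. All 6 received lipopolysaccharide (LPS), a bacterial trigger of inflammation and bone destruction, at 20 mg/kg into the periosteum of the calvaria, so untreated bone is not part of the comparison. From the day of injection, 3 mice received the JAK inhibitor ABT-317, a compound selective for JAK1, orally at 60 mg/kg in 2 doses a day for 5 days, and 3 received vehicle. Each library came from 1 mouse, and neither the age of these mice nor a batch was given.

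Oxidative phosphorylation takes place in the inner mitochondrial membrane. Complex I takes electrons from NADH and complex II takes them from succinate, both pass them to coenzyme Q, complex III hands them on to cytochrome c, and complex IV delivers them to oxygen. Complexes I, III and IV pump protons, and complex V (ATP synthase) lets the protons return to make ATP. Osteoclasts are cells rich in mitochondria, and their formation from precursors is known to be accompanied by mitochondrial biogenesis. The complexes also hold subunits encoded in the mitochondrial genome, and these were not analysed here, as none of their 13 symbols was among the rows of the tables.

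The gate was checked against defining markers. Csf1r, the receptor for macrophage colony-stimulating factor, stood at 412, 357 and 417 FPKM in vehicle-treated mice 1 to 3 and at 355, 422 and 382 FPKM in JAK inhibitor-treated mice 1 to 3. The summed FPKM of 10 monocyte and osteoclast precursor markers ranged from 3635 to 5441 in the vehicle group and from 4983 to 5374 in the JAK inhibitor group, most of it from Ly6c2. Cx3cr1, the gene whose promoter drives the reporter, was at 30.1, 31.5 and 15.5 FPKM and 30.1, 29.5 and 36.1 FPKM, with vehicle-treated mouse 3 lowest. An unadjusted limma p under 0.05 was reached by 9.4% of all tested genes in the lower direction and by 6.57% in the higher. Of the 10 precursor markers, 2 were lower at that limit in the JAK inhibitor group (Fcgr1, -1.15, and Itgam, -0.34 on the log2 scale) and 2 higher (Spn, 0.54, and Nr4a1, 1.14). Markers of other cells were also present. For 12 neutrophil markers the sums were 18663 to 24193 and 18940 to 26236 FPKM, with 2 lower (Mmp8, Cxcr2) and 4 higher (Camp, Elane, Mpo, Prtn3) in the JAK inhibitor group. At the same limit, 4 of 8 macrophage markers were lower (C1qa, C1qb, C1qc, Mertk; sums 649 to 778 and 456 to 594 FPKM), and 3 of 7 erythroid markers were higher (Klf1, Hba-a1, Car1; sums 2.95 to 40.2 and 65.4 to 143 FPKM). The osteoclast markers Ctsk, Acp5 and Atp6v0d2 were lower, and so were Ocstamp and Dcstamp, with sums of 166 to 576 and 107 to 112 FPKM for the list, and Calcr was at 0 in every mouse. Ocstamp and Dcstamp reached 1 FPKM in the vehicle group alone and Hba-a1 in the JAK inhibitor group alone, so these calls follow in part from the limit on level. Of 6 dendritic markers, 1 was higher (Cd209a; sums 69.1 to 104 and 83.0 to 97.6 FPKM), and of 5 lymphoid and natural killer markers Gzma was lower and Nkg7 higher (sums 204 to 373 and 491 to 572 FPKM), with Ms4a1 at 0. The part of these differences in the values below was not tested, and in sorted bulk RNA fewer cells of a type and less RNA per cell cannot be told apart. The library of vehicle-treated mouse 3 stood apart: its log2(FPKM + 1) values correlated with the other 5 libraries at 0.958 to 0.975 across genes, against 0.976 to 0.985 for all other pairs. Counts and medians over all subunits and over each complex are therefore also given without it.

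Subunit genes were among the most strongly expressed genes of these cells. The FPKM scale is per length and allows only a rough comparison between genes of unlike length (2661 bases for Ndufs1, 515 for Ndufa3). On it the mean over 6 mice ran from 0.472 (Cox4i2) to 1340 (Cox4i1). The median member lay at percentile 96.6 of all tested genes, and 71 of 82 lay in the top 10%. The median member of complex I had a mean of 278 FPKM, with Ndufs1, which carries iron-sulfur clusters of the electron path, lowest at 51.8 and the small accessory subunit Ndufa3 highest at 877. The median was 233 FPKM in complex II, 498 in complex III, 505 in complex IV and 499.7 in complex V. Levels within a complex were thus uneven at the RNA level, by 16.9-fold in complex I, 3.29-fold in complex II and 9.36-fold in complex III between the highest and lowest member.

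To examine whether JAK inhibition was accompanied by a difference in these genes, log2(FPKM + 1) was compared between groups with limma across all 11301 genes. None of the 82 subunits passed an adjusted p of 0.05, at which 0.0973% of all tested genes were lower and 0.0354% higher. At an unadjusted limma p under 0.05, 16 subunits (19.5%) were lower in the JAK inhibitor group, against 9.4% of all tested genes, and 2 (2.44%) were higher, against 6.57%. These shares compare unlike genes. The subunits had a median level of 342 FPKM and a median SE of 0.093, against 11.6 FPKM and 0.16 over all tested genes. The share of lower members was close to that of all tested genes without vehicle-treated mouse 1 (8 subunits, or 9.76%, against 8.33%) and when the variance was fitted without a trend on the mean (8 subunits, against 8.19%). The FPKM values of the 2 groups did not overlap, with all 3 JAK inhibitor-treated mice lower, for 24 subunits (29.3%, against 12.1% of all tested genes), and with all 3 higher for 1 (1.22%, against 9.92%). The log2 fold change was below 0 for 60 subunits (73.2%, against 50.6%). Its median over the 82 was -0.093, against -0.0035 over all tested genes, and it ran from -0.46 (Atp5g3) to 1.08 (Cox6a2).

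**Figure D1:**
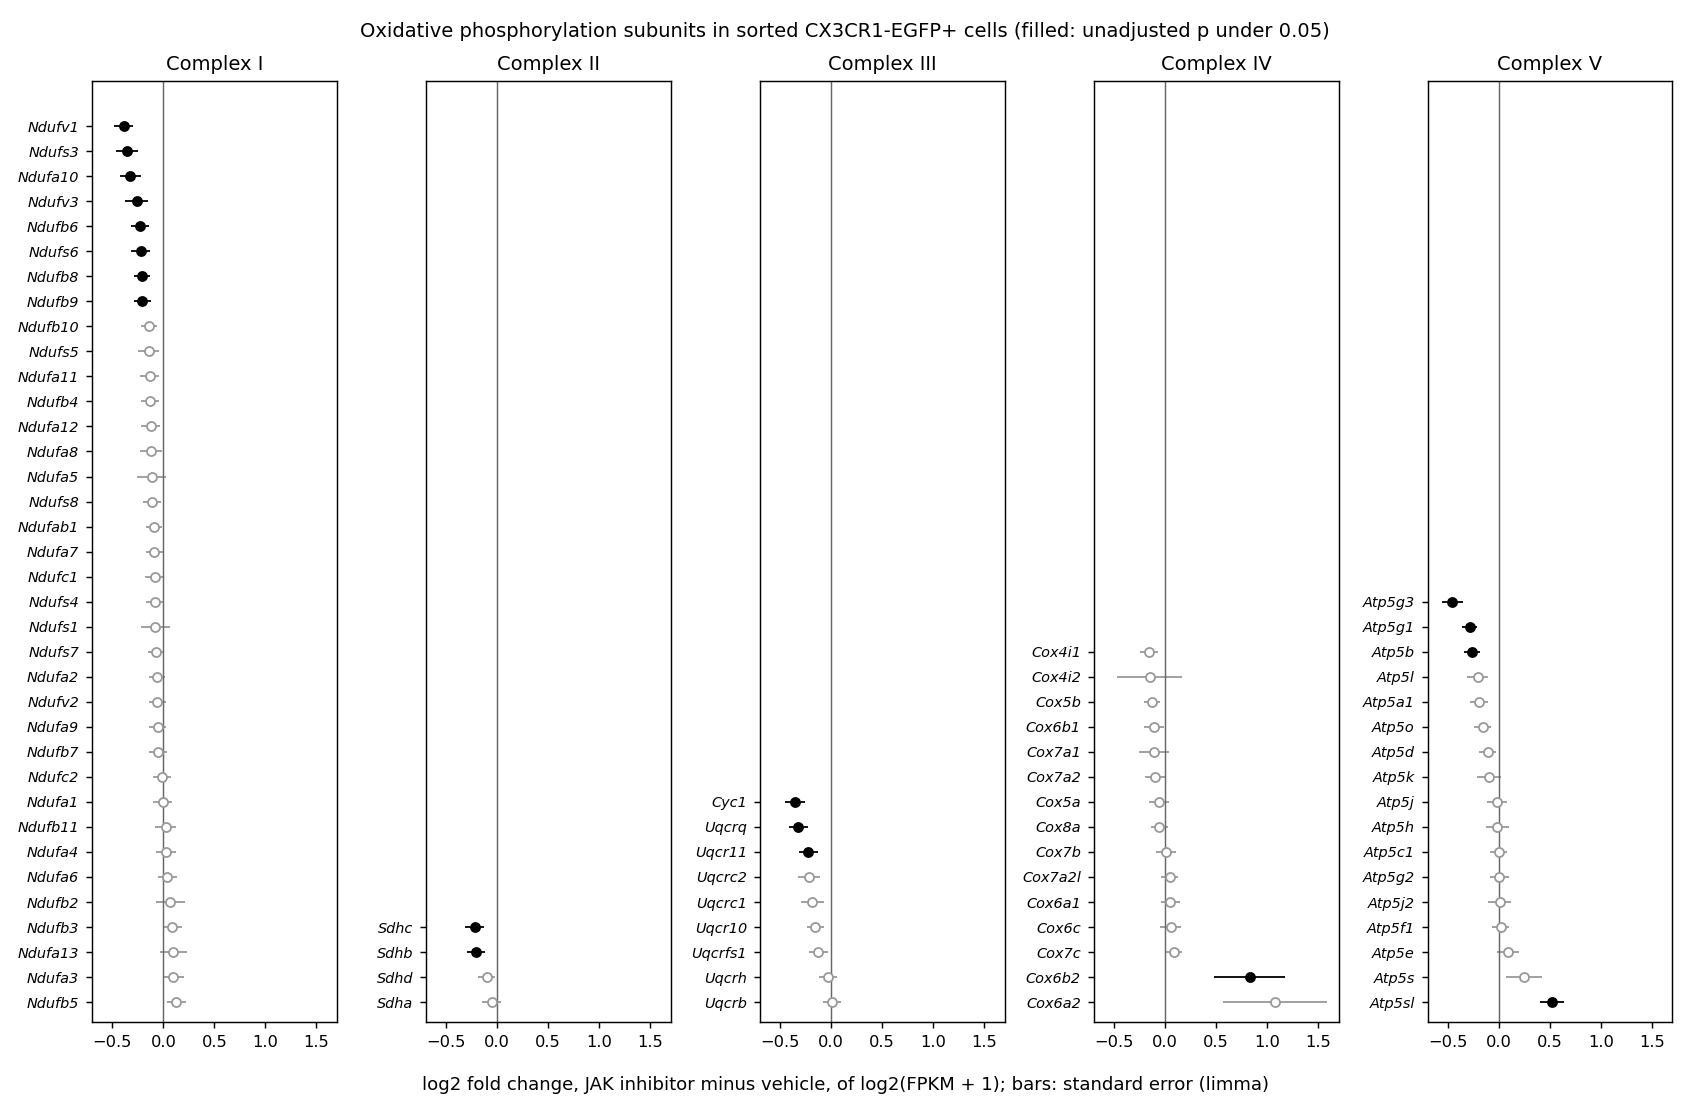
Log2 fold change (JAK inhibitor minus vehicle, of log2(FPKM + 1)) of 81 of the 82 subunits, with 1 panel per complex, symbols ordered by fold change, bars giving the limma standard error and filled points marking an unadjusted p under 0.05. Points lie mostly left of 0 in complexes I, II and III, on both sides in complexes IV and V, and the longest bars belong to the weakly expressed Cox6a2, Cox6b2 and Cox4i2.

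The members of each complex were then taken separately. At an unadjusted limma p under 0.05, 9.4% of all tested genes were lower and 6.57% higher. Members of complex II centred on a log2 fold change of -0.16, and at that limit 2 of 4 (50%) were lower and 0 higher. The median was -0.18 in complex III (3 of 9, or 33.3%, lower, 0 higher) and -0.088 in complex I (8 of 37, or 21.6%, lower, 0 higher). In complex IV it was -0.057, with 0 of 15 lower and 1 (6.67%) higher. In complex V it was -0.021, with 3 of 17 (17.6%) lower and 1 (5.88%) higher. Without vehicle-treated mouse 3, 7.82% of all tested genes were lower. The number lower was then 6 in complex I (16.2%, median -0.088), 1 in complex II (25%, -0.16) and 2 in complex III (22.2%, -0.19). It was 0 in complex IV (-0.075) and 3 in complex V (17.6%, -0.12). Complex V as grouped by symbol includes Atp5s and Atp5sl, which are not subunits of ATP synthase. Without them its median was lower (given below), and that assignment was not refitted with mice left out. Grouped by symbol, the medians of complexes IV and V had no stable sign. When each mouse was left out in turn they ran from -0.11 to 0.036 and from -0.12 to 0.020, above 0 in both without JAK inhibitor-treated mouse 2 or vehicle-treated mouse 1 and in complex IV also without vehicle-treated mouse 2, and quantile normalization gave 0.038 in complex V. The number lower in complex I was 3 (8.11%) without JAK inhibitor-treated mouse 2, JAK inhibitor-treated mouse 3 or vehicle-treated mouse 1. This was close to the 7.07%, 7.16% and 8.33% of all tested genes that were lower in these omissions. In complex II the number was 0 or 1 in each of the 6 omissions. Whether the complexes differed from each other was not tested, since their members share the same 6 libraries.

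The level of the subunits also varied between mice of the same group. For each mouse, the median over members of the deviation from the gene's mean over 6 mice was taken on the log2(FPKM + 1) scale. For all 82 subunits it was 0.093, 0.019 and 0.029 in vehicle-treated mice 1 to 3 and 0.028, -0.12 and -0.028 in JAK inhibitor-treated mice 1 to 3, so that the groups overlapped. For complex II the values were 0.11, 0.064 and 0.042 against -0.065, -0.12 and -0.038, and for complex III 0.089, -0.013 and 0.14 against -0.075, -0.14 and -0.055, without overlap in either. Those of complexes I, IV and V overlapped. JAK inhibitor-treated mouse 2 had the lowest value of the 6 for 45 subunits and the highest for 1, whereas vehicle-treated mouse 1 had the highest for 30 and the lowest for 0. The FPKM of mouse 2 of the JAK inhibitor group also had the lowest sum over all genes (688372, against 739909 to 775790 in the other 5). Without it, 10 subunits (12.2%) were lower and 1 higher at an unadjusted limma p under 0.05 (7.07% and 4.88% of all tested genes) and the median log2 fold change was -0.048. Leaving out vehicle-treated mouse 3, 12 (14.6%) were lower and 1 higher (7.82% and 5.15%) and the median was -0.10. Leaving out vehicle-treated mouse 1, the median was -0.060.

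**Figure D2:**
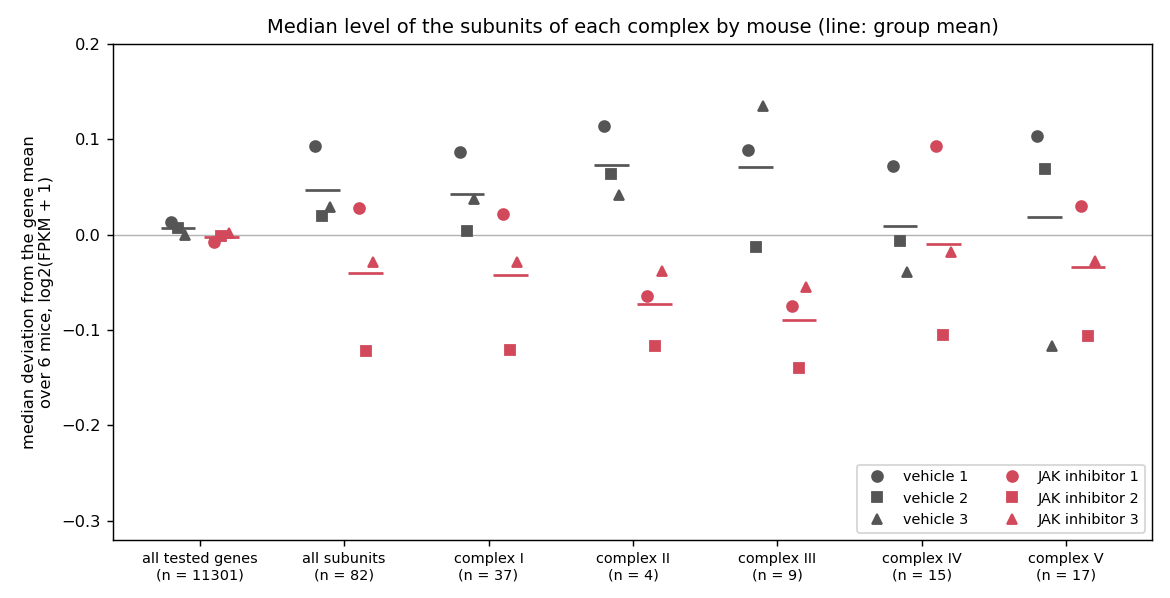
Median deviation of the subunits of each complex from their gene means over the 6 mice (log2(FPKM + 1) scale), 1 point per mouse and a line at each group mean, with all tested genes at the left. Mice treated with the JAK inhibitor lie below all vehicle-treated mice in complexes II and III, the groups overlap elsewhere, and JAK inhibitor-treated mouse 2 is lowest in all columns but 2 (all tested genes and complex V).

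The share of the summed FPKM that fell to the 82 subunits was 4.84, 4.76 and 4.71% in the vehicle group and 4.68, 4.61 and 4.59% in the JAK inhibitor group. Means were 4.77% ± 0.067 and 4.63% ± 0.048 (SD, n = 3), and the groups did not overlap, with the lowest vehicle-treated mouse and the highest JAK inhibitor-treated mouse close together.

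In complex I, the members with the smallest p lay in its peripheral arm and membrane arm alike. Ndufv1, which binds flavin and takes the electrons from NADH, was at 149, 157 and 178 FPKM in vehicle-treated mice 1 to 3 and at 118, 129 and 121 FPKM in JAK inhibitor-treated mice 1 to 3. Every JAK inhibitor-treated mouse lay below every vehicle-treated mouse, and the log2 fold change was -0.39 (SE 0.095, adjusted p = 0.121). Ndufs3, a core protein of the module that reduces coenzyme Q, stood at 165, 141 and 155 FPKM under vehicle and 135, 107 and 117 FPKM under the JAK inhibitor. These values did not overlap either (-0.36, SE 0.11, adjusted p = 0.174). In GENCODE M21, 28.2% of the 75-base words of the Ndufs3 transcript also occur in transcripts of other genes, among them Kbtbd4, whose exons overlap it on the opposite strand, so its value is uncertain to that extent. Ndufa10, an accessory subunit of the membrane arm, was at 173, 172 and 177 FPKM and 142, 120.5 and 155 FPKM, again without overlap (-0.32, SE 0.10, adjusted p = 0.191). Vehicle-treated mice lay close together for this gene and JAK inhibitor-treated mice were more spread (SD 2.80 and 17.7 FPKM, n = 3 each).

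The other 5 members of complex I with an unadjusted limma p under 0.05 differed less. Ndufb8, an abundant subunit of the membrane arm, was at 816, 772 and 834 FPKM and 725, 657 and 712 FPKM, and its log2 fold change was -0.21 (adjusted p = 0.261). Those of Ndufb6, Ndufs6, Ndufb9 and Ndufv3, named after their values were seen, ran from -0.26 (Ndufv3, whose groups overlapped) to -0.21 (Ndufb9). For Ndufb6 and Ndufb9, 31.3% and 20.3% of the 75-base words also occur in transcripts of other genes. Each of the 5 members lost its unadjusted call when JAK inhibitor-treated mouse 2, JAK inhibitor-treated mouse 3 or vehicle-treated mouse 1 was left out, with log2 fold changes that then ran from -0.30 to -0.15. Other catalytic subunits did not pass the unadjusted limit. Log2 fold changes were -0.11 for Ndufs8, -0.075 for Ndufs7, -0.078 for Ndufs1 and -0.061 for Ndufv2, all iron-sulfur proteins of the electron path, with overlapping groups in each. The most abundant member, Ndufa3, had 0.096 (SE 0.10), and Ndufa4 0.026 (SE 0.096). Sorted by module, all 5 quinone-module members had a log2 fold change below 0 (median -0.11), as did 9 of 10 in the NADH module (median -0.085) and 15 of 22 in the membrane arm and remaining members (median -0.070).

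**Figure D3:**
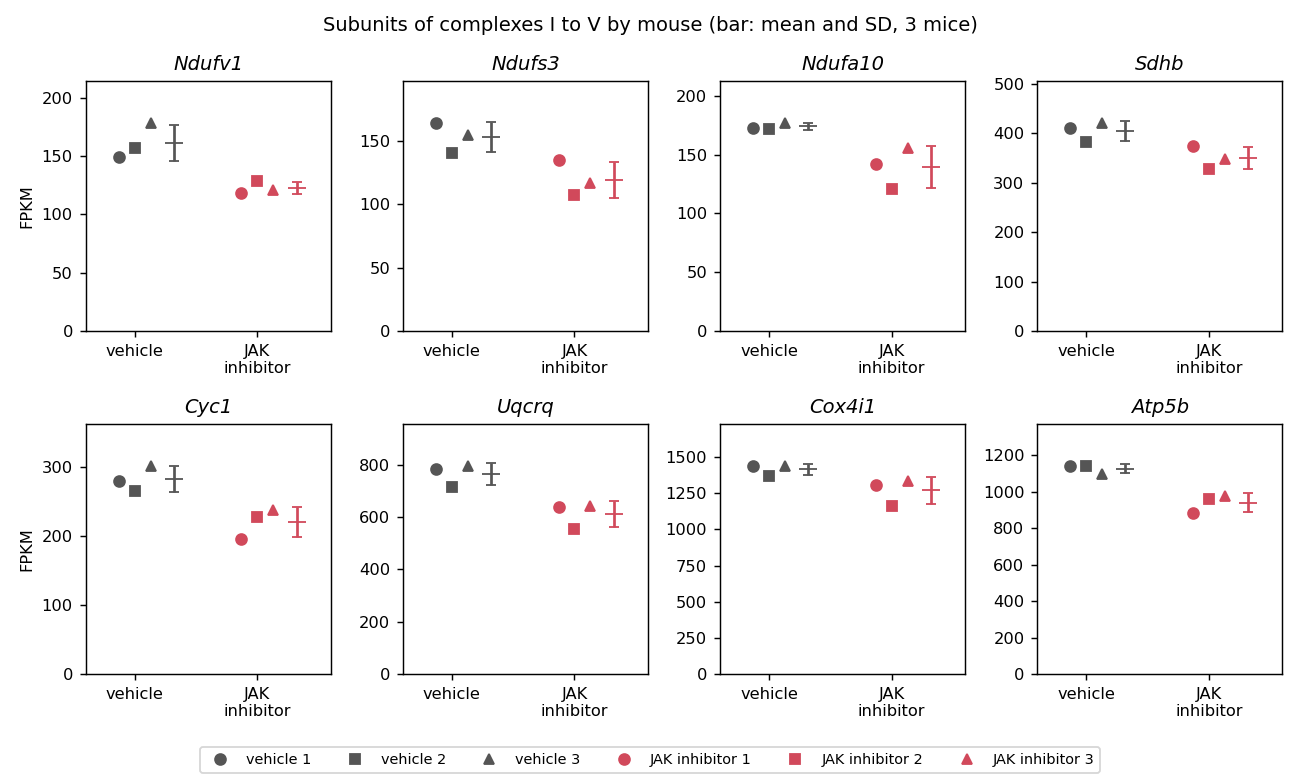
FPKM of Ndufv1, Ndufs3 and Ndufa10 (complex I), Sdhb (II), Cyc1 and Uqcrq (III), Cox4i1 (IV) and Atp5b (V) by mouse, with axes from 0 and the mean and SD of 3 mice beside the points. In each panel the 3 JAK inhibitor-treated mice lie below the 3 vehicle-treated mice, by a gap that is narrow for Ndufs3, Sdhb and Cox4i1.

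In complex II, which is encoded by nuclear genes alone and also serves as succinate dehydrogenase of the tricarboxylic acid cycle, all 4 members had a log2 fold change below 0. Sdhb, its iron-sulfur subunit, was at 411, 382 and 422 FPKM in vehicle-treated mice and 374, 328 and 348 FPKM in JAK inhibitor-treated mice. Sdhc, a membrane anchor, was at 119, 133 and 119 FPKM and 102, 101 and 114 FPKM. Groups were separate for both, and the log2 fold changes were -0.21 (SE 0.086, adjusted p = 0.281) and -0.22 (SE 0.093, adjusted p = 0.296). Both calls were near the limit, and neither held without the trend in variance or with quantile normalization. Sdhb lost its unadjusted call without vehicle-treated mouse 1 or 3 or JAK inhibitor-treated mouse 2 or 3 (-0.21 to -0.17), and Sdhc without vehicle-treated mouse 1 or 2 or JAK inhibitor-treated mouse 1 or 2 (-0.25 to -0.16). The flavoprotein Sdha, at 172, 173 and 148 FPKM and 158, 163 and 152 FPKM, and the other anchor Sdhd, at 336, 301 and 309.7 FPKM and 282, 291 and 306 FPKM, overlapped between groups (-0.054 and -0.10, adjusted p = 0.812 and 0.576). Sdha had its lowest value in vehicle-treated mouse 3.

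Complex III had the lowest median of the 5 complexes. Cyc1 encodes cytochrome c1, the heme protein that hands electrons to cytochrome c. It was at 281, 265 and 302 FPKM in the vehicle group and 196, 228 and 238 FPKM in the JAK inhibitor group, without overlap, and its log2 fold change was -0.36 (SE 0.10, adjusted p = 0.154). The small accessory subunit Uqcrq stood at 784, 715 and 795 FPKM and 639, 554 and 641 FPKM (-0.32, SE 0.092, adjusted p = 0.157), and again each JAK inhibitor-treated mouse was below each vehicle-treated mouse. Uqcr11, the most abundant member, was at 1143, 962 and 1139 FPKM and 946, 901 and 919 FPKM (-0.23, adjusted p = 0.283), where vehicle-treated mouse 2 lay close to the JAK inhibitor group and the unadjusted call was lost when any mouse but that mouse was left out (-0.25 to -0.18). The other redox subunit, the Rieske iron-sulfur protein Uqcrfs1, was at 202, 209.8 and 222 FPKM and 205, 175 and 201 FPKM, with overlap (-0.13, adjusted p = 0.536). The core protein Uqcrc2, the least abundant member, was at 127, 102 and 117 FPKM and 90.5, 104 and 102 FPKM, also with overlap (-0.21, adjusted p = 0.373). Of the remaining 4 members, 3 had a log2 fold change below 0.

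In complex IV, no member was lower at an unadjusted limma p under 0.05. Cox4i1, a subunit that contacts the catalytic core and the most abundant of all 82, was at 1435, 1369 and 1436 FPKM in vehicle-treated mice and 1307, 1162 and 1332 FPKM in JAK inhibitor-treated mice. The groups were separate, with JAK inhibitor-treated mouse 2 far below the rest (-0.16, SE 0.087, adjusted p = 0.413). Cox5b was likewise separate (-0.13, adjusted p = 0.476). The broad forms of the other subunits named overlapped, with log2 fold changes of -0.11 for Cox6b1, -0.096 for Cox7a2, -0.057 for Cox8a and 0.053 for Cox6a1. Cox7a2l, counted here with the broad forms by its symbol, also overlapped (0.044). Over the 11 broad forms the median was -0.057, with 6 below 0 and 5 above.

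Several complex IV subunits have a second form known from particular tissues, and these were weakly expressed. Cox6b2, known as the testis form of Cox6b, was at 28.4, 32.6 and 11.2 FPKM in the vehicle group and 52.6, 31.9 and 37.3 FPKM in the JAK inhibitor group. Vehicle-treated mouse 3 was far below the other 5 mice, and vehicle-treated mouse 2 lay within the JAK inhibitor group. Its log2 fold change was 0.83 (SE 0.35, adjusted p = 0.293), and 0.37, no longer past the unadjusted limit, without vehicle-treated mouse 3. The call was also lost without any JAK inhibitor-treated mouse (0.63 to 0.98). Cox6a2, the form of heart and skeletal muscle, was at 11.0, 16.5 and 2.25 FPKM and 15.1, 19.8 and 18.2 FPKM, with the same mouse lowest and the groups overlapping (1.08, SE 0.51, adjusted p = 0.349), and its value without that mouse was 0.36. As a share of its pair, Cox6b2 made up 1.77% ± 0.849 of Cox6b FPKM under vehicle and 3.13% ± 0.493 under the JAK inhibitor, without overlap, and Cox6a2 0.905% ± 0.646 and 1.61% ± 0.33 of Cox6a FPKM, with overlap (SD, n = 3; exact 2-sided permutation p = 0.1, the smallest that 3 against 3 mice allow, and 0.2). Cox7a1, the muscle form of Cox7a, was at 8.25, 9.54 and 7.42 FPKM and 8.52, 7.00 and 7.64 FPKM, or 2.34% and 2.29% of its pair. Cox4i2, a form known from lung, was near 0 (0.0960, 1.13 and 0.464 FPKM and 0.689, 0.0470 and 0.410 FPKM) with mice of both groups at either end. Cox6b1 thus supplied at least 96.3% of its pair in every mouse, and Cox6a1 at least 98.1%.

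**Figure D4:**
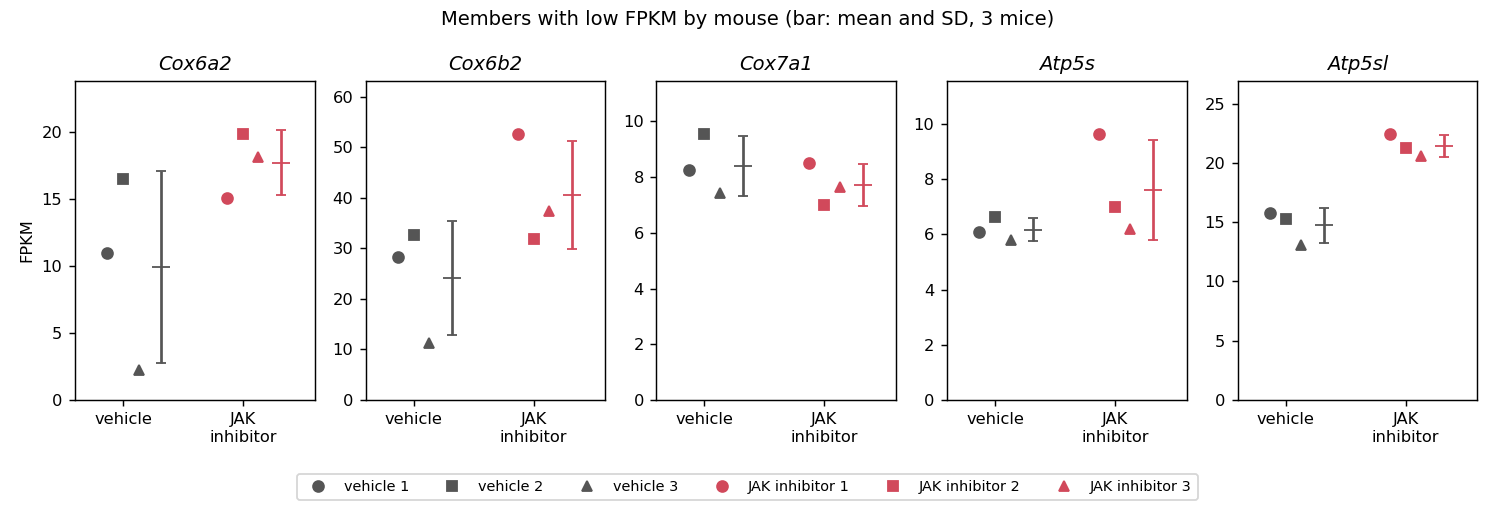
FPKM by mouse of the weakly expressed members Cox6a2, Cox6b2, Cox7a1, Atp5s and Atp5sl, each on its own axis from 0, with the mean and SD of 3 mice beside the points. The groups are separate for Atp5sl alone, and vehicle-treated mouse 3 is the lowest of the 6 in the panels of Cox6a2, Cox6b2, Atp5s and Atp5sl.

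Complex V held the member with the smallest limma p of the 82, Atp5g3. Atp5g1, Atp5g2 and Atp5g3 encode precursors of the same mature c subunit, which forms the rotating ring that protons turn, and the precursors differ in their mitochondrial targeting peptides. The genes lie on different chromosomes in GENCODE M21 (mm10): Atp5g1 at chr11:96068852-96075670, Atp5g2 at chr15:102662864-102672352 and Atp5g3 at chr2:73908447-73911326, all on the minus strand. As the mature protein is shared, the bases before a RefSeq start site of each gene are shown. For Atp5g1 and Atp5g2 this start lies within the gene span given above, and 39 and 80 exon bases were left out. The stretch shown for Atp5g2 still lies within its span, whereas those of Atp5g1 and Atp5g3 lie just outside theirs. The Atp5g2 stretch is thus not comparable with them as bases before the gene. The sequences are those of RefSeq (GRCm38.p6) up to 250 bases before the start, less any base within a GENCODE exon. Capitals mark matches to CCAAT and to TCAAGGTCA (the site of estrogen-related receptors) on either strand, and in Atp5g1 a match in each direction overlaps by 2 bases.
Atp5g1, chr11:96075671-96075881, minus strand: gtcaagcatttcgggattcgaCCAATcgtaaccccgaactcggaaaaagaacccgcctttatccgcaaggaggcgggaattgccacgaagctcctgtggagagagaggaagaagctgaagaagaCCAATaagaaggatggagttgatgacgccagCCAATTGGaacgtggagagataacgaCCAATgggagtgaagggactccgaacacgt
Atp5g2, chr15:102671128-102671297, minus strand: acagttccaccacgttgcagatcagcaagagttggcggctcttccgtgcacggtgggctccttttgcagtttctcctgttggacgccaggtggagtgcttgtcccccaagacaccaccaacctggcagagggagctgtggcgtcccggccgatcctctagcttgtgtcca
Atp5g3, chr2:73911327-73911576, minus strand: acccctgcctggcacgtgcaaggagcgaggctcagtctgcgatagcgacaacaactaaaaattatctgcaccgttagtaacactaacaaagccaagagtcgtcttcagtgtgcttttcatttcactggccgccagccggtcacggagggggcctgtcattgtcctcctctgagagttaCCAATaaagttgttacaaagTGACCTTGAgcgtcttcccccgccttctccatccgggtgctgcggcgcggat
Before Atp5g1, 4 matches to CCAAT were on the strand shown and 1 on the other, and before Atp5g3 were 1 match to CCAAT (-72 to -68) and 1 to TCAAGGTCA (-52 to -44, reverse strand). The stretch of Atp5g2 held neither, while a match to CGCATGCG, the centre of the site of nuclear respiratory factor NRF1, lay at -41 to -34 within the 80 bases left out, which belong to an exon of another Atp5g2 transcript in GENCODE.

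The log2 fold changes of the 3 c-subunit genes were unequal, and none passed the adjusted limit. Atp5g3 was at 798, 809.6 and 837 FPKM in vehicle-treated mice 1 to 3 and 547, 553 and 685 FPKM in JAK inhibitor-treated mice 1 to 3, a log2 fold change of -0.46 (SE 0.10, 95% interval -0.69 to -0.23, adjusted p = 0.109). Atp5g1 was at 535, 497 and 504 FPKM and 426, 409.9 and 419.9 FPKM (-0.29, SE 0.077, adjusted p = 0.143). In both genes all JAK inhibitor-treated mice were below all vehicle-treated mice, and for Atp5g3 mouse 3 of the JAK inhibitor group was nearest to the vehicle group. Atp5g2 was at 456, 454 and 391 FPKM and 461, 406 and 434 FPKM, with overlapping groups and a log2 fold change of 0.0017 (95% interval -0.21 to 0.22, adjusted p = 0.996). This value is uncertain, because 86.9% of the 75-base words of the Atp5g2 transcript occur in the pseudogenes Gm10175 and Gm10231 as well, the highest share among the subunits, whereas Atp5g3 shared 0 and Atp5g1 7.6%. No such word was common to any pair of the 3 genes. Their summed FPKM was 1760 ± 28.8 in the vehicle group and 1447 ± 85.8 in the JAK inhibitor group (SD, n = 3; exact 2-sided permutation p = 0.1). Atp5g3 supplied 46.3% ± 1.89 of that sum under vehicle and 41.0% ± 3.23 under the JAK inhibitor, and Atp5g2 24.6% ± 1.78 and 30.0% ± 1.99. These shares did not overlap between groups (exact permutation p = 0.1 each), although for Atp5g3 the highest share in the JAK inhibitor group (44.5%) nearly met the lowest in the vehicle group (44.6%). Atp5g1 supplied 29.1% ± 0.835 and 29.0% ± 1.47 (exact permutation p = 0.9).

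**Figure D5:**
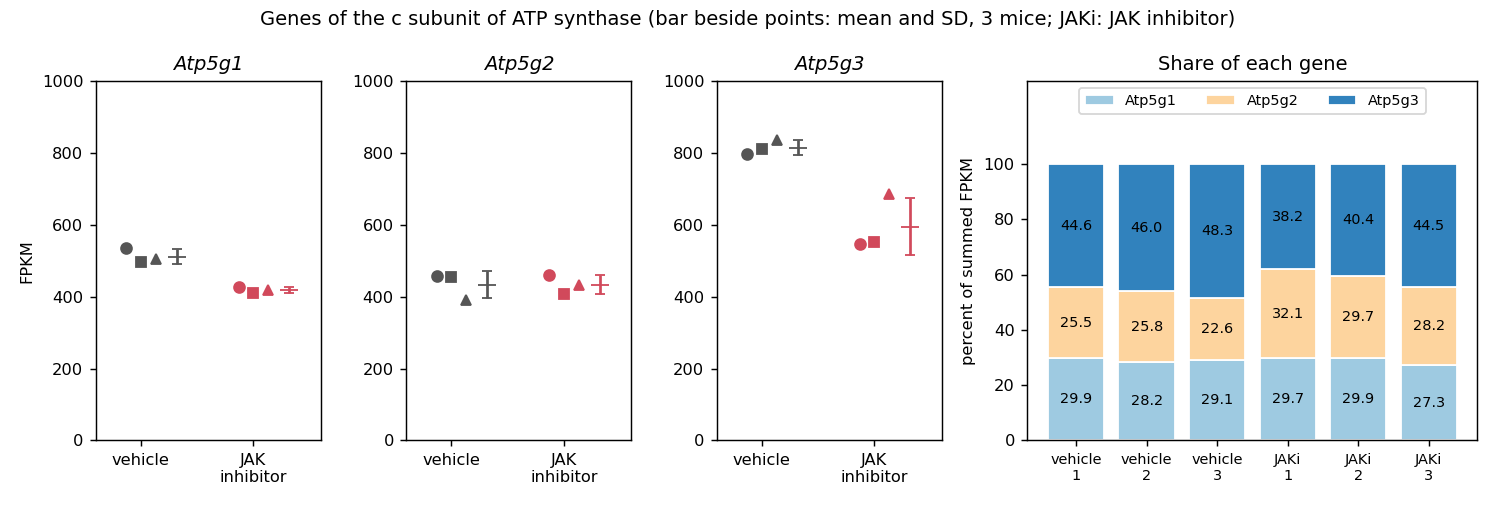
FPKM of Atp5g1, Atp5g2 and Atp5g3 by mouse (circle, square and triangle for mice 1, 2 and 3 of each group, mean and SD of 3 mice beside the points, axes from 0), and the percent of their summed FPKM that each gene supplied in each mouse. The groups are separate for Atp5g1 and Atp5g3 and overlap for Atp5g2, whose share is 22.6 to 25.8% in vehicle-treated mice and 28.2 to 32.1% in JAK inhibitor-treated mice.

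In the catalytic head of complex V, Atp5b, the beta subunit that makes ATP, was at 1139, 1142 and 1097 FPKM in the vehicle group and 881, 958 and 979 FPKM in the JAK inhibitor group, without overlap (-0.26, SE 0.081, adjusted p = 0.178). Its partner Atp5a1, the alpha subunit, was at 507, 513 and 514 FPKM and 406, 483 and 454 FPKM, also separate (-0.19, adjusted p = 0.325). Over the 5 members of the head the median was -0.11, and over the 4 of the peripheral stalk -0.019, with 0 of 4 called. Vehicle-treated mouse 3 weighed on this complex: its median deviation was -0.12, where mice 1 and 2 of that group had 0.10 and 0.068, and without it complex V shifted to -0.12 from -0.021.

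Atp5sl, which encodes a factor of complex I assembly despite its symbol, was the only one of the 82 with all JAK inhibitor-treated mice higher. It stood at 15.8, 15.3 and 13.1 FPKM in the vehicle group and 22.4, 21.3 and 20.6 FPKM in the JAK inhibitor group (0.51, SE 0.12, adjusted p = 0.113). Atp5s, the least abundant member of the group, overlapped (6.09, 6.62 and 5.80 and 9.63, 7.00 and 6.19 FPKM; 0.25, adjusted p = 0.534), with JAK inhibitor-treated mouse 1 above the other 5. Assigned by protein instead of symbol, without Atp5s and Atp5sl, complex V centred on -0.10, and complex IV with Ndufa4 on -0.024.

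The genes that assemble the complexes were read from lists, and whether they differed from the subunits was not tested. Of 15 complex I assembly factors tested, 1 was lower at an unadjusted limma p under 0.05 (Ecsit, -0.45, adjusted p = 0.17; 6.67%, against 9.4% of all tested genes) and 0 were higher, and the median log2 fold change was -0.027. Of 35 factors for complexes II to IV, 2 (5.71%) were lower (Taco1, an activator of translation of a mitochondrially encoded complex IV subunit, and Sdhaf1, an assembly factor of complex II) and 3 (8.57%, against 6.57%) higher (Cox16, Cox20 and Coa6, all of complex IV), with a median of 0.035. Cox16 was at 33.2, 27.3 and 30.0 FPKM under vehicle and 40.3, 38.8 and 36.5 FPKM under the JAK inhibitor, without overlap (0.35, adjusted p = 0.181). Of 4 genes for assembly and inhibition of ATP synthase, Usmg5, a small protein of the synthase dimer, was lower (-0.21, adjusted p = 0.284), while Atpif1, the inhibitory factor, was at -0.020, Atpaf1 at -0.18 and Atpaf2 at -0.030. None of these genes passed the adjusted limit.

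Coenzyme Q carries electrons from complexes I and II to complex III. Of 10 genes for cytochrome c and for coenzyme Q synthesis, 3 were lower at an unadjusted limma p under 0.05 (Coq7, Coq5 and Pdss1; 30%, against 9.4% of all tested genes), 0 were higher, and the median was -0.094. The same 3 were lower without vehicle-treated mouse 3 (median -0.12). Coq7, a hydroxylase of a late step, was at 64.1, 57.4 and 64.6 FPKM in the vehicle group and 41.5, 40.0 and 46.7 FPKM in the JAK inhibitor group, without overlap (-0.53, SE 0.10, adjusted p = 0.0972). Coq5, a methyltransferase of the same route, was at 32.9, 27.5 and 27.3 FPKM and 16.4, 17.0 and 23.2 FPKM, likewise separate (-0.61, SE 0.15, adjusted p = 0.122). The somatic cytochrome c gene Cycs overlapped (0.094, adjusted p = 0.746).

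The promoters of the subunits were searched, on both strands of the 300 bases from 250 before to 50 after each RefSeq start, for motifs of factors known to act on mitochondrial genes. A promoter was listed for 65 of the 82 subunits and for 8604 of the tested genes. The NRF1 motif CGCATGCG was present for 9 subunits (Atp5g2, Atp5j, Atp5k, Atp5l, Cox6a1, Ndufa8, Ndufa11, Uqcr11 and Uqcrc1; 13.8%), against 4.74% of tested genes and 1.87% of all 32851 promoters. The estrogen-related receptor motif TCAAGGTCA was present for Atp5g3 and Sdhd (3.08%, against 0.325% and 0.423%). The ETS motif CCGGAAG was found for 16 subunits (24.6%, against 21.6% and 8.86%), and CCAAT for 28 (43.1%, against 43.5% and 37.4%). These are matches of letters, and binding was not measured.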

How the data were processed

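RNA-Seq of sorted calvarial CX3CR1-EGFP+ cells was used, with 6 tables of FPKM deposited by the authors, 1 per mouse (3 JAK inhibitor, 3 vehicle). The submitters' processing notes name TopHat2 2.0.13, Bowtie2 2.2.3, SAMtools 0.1.19, Cufflinks 2.2.1 and mm10, with no roles; the annotation is not given in the sources used here. The labels name a SMART-Seq HT and Nextera kit and the methods a stranded mRNA kit (75-base single-end reads), so it is not known whether counting used strand. FPKM hold no read counts, and depth is unknown. Ratios of values under 0.3 FPKM had a clear peak in some pairs of libraries and not in others. JAK inhibitor-treated mouse 1 had 54 genes in the peak bin and 9 in the next against vehicle-treated mouse 2. Against vehicle-treated mouse 3 it had 13 and 11. No 2 tables agreed, with 8 to 58 symbols of equal value per pair.

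Genes that reached 1 FPKM in any mouse were kept, log2(FPKM + 1) was computed (a scale that understates changes of weakly expressed genes), and groups were compared with limma 3.58.1 in R 4.3.3 (moderated statistics with a mean-variance trend, p adjusted by Benjamini-Hochberg over all 11301 genes). Shares were compared by an exact 2-sided permutation test. With 3 mice a group, limma p-values rest on the spread between these mice, moderated towards a trend over all genes. Permutation p-values rest on these mice alone. Samples were grouped by title, and replicate numbers were not used as pairs.

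The members and lists were chosen with earlier results of these data known. The genes named are, per complex, the 4 with the smallest limma p and those with the highest and lowest mean, the isoform families, complex II and the catalytic subunits. Other subunits given with values, and Cs and Idh2, are marked. In the further lists, mainly genes past the unadjusted limit are named. Members with the next smallest p, in either direction, are therefore not all given. Not reported singly here are 1 subunit and 1 gene of a further list. Subgroups within complexes and the assignment by protein were set after seeing the data. Alternatives were another pseudocount (0.1), 2 other filters, other scalings, library weights, no trend, a replicate block and leaving out each mouse. Positions are from GENCODE M21 (81 of 82 members matched; Atp5sl was not) and promoters from RefSeq. Words of 75 bases shared with other genes were counted on GENCODE transcripts, and 45 of 81 members had none. In 16 members more than 20% of the words were shared, among them Ndufs3, Ndufb6, Ndufb9 and Uqcrc2 (23.8%).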

Additional observations from a re-analysis of the deposited data

How the results depend on the processing

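No subunit passed an adjusted p of 0.05 in any of 14 alternatives. All 18 subunits with an unadjusted limma p under 0.05 kept their direction in all 14, and 9 also kept the call in each (Ndufv1, Ndufs3, Ndufa10, Cyc1, Uqcrq, Atp5g3, Atp5g1, Atp5b and Atp5sl). The number called was 18, and 9 without the trend in variance (8 lower, or 9.76%, against 8.19% of all genes, and 1 higher). Leaving out a mouse gave 10 without vehicle-treated mouse 1 (8 lower, or 9.76%, against 8.33%) or JAK inhibitor-treated mouse 3 (9 lower, or 11%, against 7.16%), 11 without JAK inhibitor-treated mouse 2 and up to 20 without vehicle-treated mouse 2 (17 lower, or 20.7%, against 9.43%). Over all genes, 15 passed the adjusted limit, against 34 with a filter of 1 FPKM in 3 mice, 63 with library weights, 2 without a filter, 2 without the trend, and 1 to 25 when a mouse was left out (1 without JAK inhibitor-treated mouse 2, 3 and 4 without mice 3 and 1, 8 and 25 without vehicle-treated mice 1 and 3). With the replicate number as a block, 67 genes passed and 19 subunits had an unadjusted limma p under 0.05 (16 lower, 3 higher). Deviations from the group means correlated at 0.016, 0.054 and -0.00016 between same-numbered mice over all genes. Between mice of unlike number they correlated at -0.038 to 0.019. A correlation over all genes cannot exclude a pairing that acts on some of them, so whether the mice were paired is not known. Quantile normalization, which moved the median of all genes to 0.016, gave a median log2 fold change of -0.099 in complex II, -0.043 over all subunits and 0.038 in complex V. When a mouse was left out, the median ran from -0.11 to 0.036 in complex IV (0.036 without JAK inhibitor-treated mouse 2) and from -0.12 to 0.020 in complex V (-0.12 without vehicle-treated mouse 3). Among members with no call, the sign turned with library weights for Atp5g2 (-0.041) and Ndufa4 (-0.0026) and with quantile normalization for Sdha (0.0079). Leaving out a mouse gave -0.071 to 0.047 for Atp5g2, -0.015 to 0.10 for Cox6a1, -0.054 to 0.092 for Ndufa4, -0.38 to 0.098 for Cox4i2 and -0.24 to 0.057 for Ndufs1. The cause of these differences was not tested. FPKM keep no depth, so no counting error can be given.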

Other observations

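The tricarboxylic acid cycle supplies NADH and succinate to complexes I and II, and some of its genes were also lower in the JAK inhibitor group. Of 17 genes tested, 4 were lower at an unadjusted limma p under 0.05 (23.5%, against 9.4% of all tested genes), 0 were higher, and the median log2 fold change was -0.087. Without vehicle-treated mouse 3, 5 were lower (29.4%, against 7.82% of all tested genes, median -0.15). Without JAK inhibitor-treated mouse 1, 2 were lower (11.8%, against 7.31%, median -0.10). Mdh2, mitochondrial malate dehydrogenase, was at 522, 544 and 564 FPKM in vehicle-treated mice 1 to 3 and 447, 404 and 433 FPKM in JAK inhibitor-treated mice 1 to 3, without overlap (-0.34, SE 0.081, adjusted p = 0.117). Idh3a, a subunit of the NAD-dependent isocitrate dehydrogenase, was at 74.5, 64.4 and 91.9 FPKM and 55.0, 53.2 and 51.2 FPKM (-0.51, SE 0.13, adjusted p = 0.129), and all its JAK inhibitor-treated mice lay below all vehicle-treated mice. Cs, citrate synthase, also among the 4, had a log2 fold change of -0.26. It lost its unadjusted call without JAK inhibitor-treated mouse 1 or 2, without vehicle-treated mouse 1 or 2, and without the trend in variance. Idh2, the NADP-dependent enzyme, had values in the other direction (137, 159 and 101 and 160.3, 167 and 159 FPKM; 0.31, adjusted p = 0.349), without overlap. Cs and Idh2 were named after their values were seen.

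Among 11 regulators of mitochondrial biogenesis that were tested, 1 was lower at the same limit (9.09%, against 9.4% of all tested genes), and 0 when any mouse but vehicle-treated mouse 2 was left out. Ppargc1b, a coactivator known to act in osteoclast mitochondrial biogenesis, was at 1.78, 0.648 and 2.70 FPKM and 0.326, 0.620 and 0.689 FPKM, with overlapping groups and vehicle-treated mouse 3 highest (-0.74, SE 0.31, adjusted p = 0.289). It reached 1 FPKM in the vehicle group alone, so its call follows in part from the limit on level. Nrf1 (-0.036), Esrra (-0.033), Gabpa (-0.013) and Tfam (0.070), chosen for this list as factors that act on subunit genes or mitochondrial DNA, overlapped between groups, and Ppargc1a was below 1 FPKM in every mouse.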
